A study of Brassica napus with 355 samples.

Results

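The Br accession of Brassica napus, labelled Bristol_BnASSYST-031, was followed over a day under prolonged water limitation. Its 22 RNA-seq libraries were taken by label from the 354 libraries analysed in a series of 16 accessions. All Br plants were of that 1 genotype, and each library was described as the apex of the youngest leaf of an individual plant. The water-limited plants (WL) were dried to 20% of the full water capacity of the pot and gave 12 libraries, 3 at each of ZT1, ZT7, ZT13 and ZT19, where ZT (Zeitgeber) counts hours after dawn. The well-watered plants (WW) were kept at 100% and gave 10 libraries, 3 at each of ZT1 and ZT7, replicates 2 and 3 at ZT13, and replicates 1 and 3 at ZT19. Replicate 1 of WW at ZT13 was not analysed here. After the seventh day of limitation all watering was raised slightly, according to the labels.

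Plants short of water close their stomata, slow leaf growth and, through abscisic acid, change the transcription of many genes. Much of the leaf transcriptome also cycles over the day under the circadian clock and light, so a response can be present at one time of day and small at another. B. napus is an allotetraploid, and most of its genes have a copy on the BnA subgenome, shared with B. rapa (identifiers beginning with BraA), and a copy on the BnC subgenome, shared with B. oleracea (identifiers beginning with Bo). The files pair no identifier with a gene name, and 0 of the 106126 identifiers were found in the RefSeq gene table at hand, so genes are given by identifier. Roles are given only through the 13 functional lists of the study, which hold 300 genes. For the same reason the leaf label could not be checked against marker genes.

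Total counts per Br library ranged from 11105143 to 21645911 under WL and from 13151372 to 26236973 under WW, while the 10 most counted genes made up 1.71 to 6.30% of a library. Over 1166 genes that are on in some accessions and off in others, each Br library had the same state as the other Br libraries at 99.3% of the genes or more, and as another accession at 88.3% at most. In a principal component analysis of log2 CPM (counts scaled to the library's total), 2 WW libraries stood apart on the first component, which held 27.4% of the variance. ZT13 replicate 2 lay at 259.5 and ZT7 replicate 3 at 211.1, against -177.3 to 65.2 for the other 20. These 2 libraries correlated with each other at 0.919 (Spearman), while ZT13 replicate 2 correlated with the only other WW library of its time point at 0.829 and ZT7 replicate 3 with those of its own at 0.906 and 0.914. In the other groups the lowest median correlation of a library with its own group was 0.896. That of ZT7 replicate 3 was 0.91, so this library stood apart on the component and not by this correlation. The medians of the lists and the results of many genes are given with and without both libraries. Where no value without them is printed, the result is from all Br libraries.

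The first comparison asked which genes differed in level between WL and WW over the day as a whole. The WL minus WW difference was averaged over the 4 time points in edgeR's quasi-likelihood model of all 22 libraries, and genes were called at a Benjamini-Hochberg adjusted p of 0.01 or less. Of 53655 genes tested, 742 (1.38%) fell under WL and 96 (0.179%) rose. The falls were also the larger changes. The 742 genes had a median log2 fold change of -2.69 with quartiles of -3.95 and -1.58, and 307 of them fell by more than 3 on the log2 scale. In 112 of the 742 genes at least 1 group of libraries held no count, and with those groups set to 3 counts per library the median was -2.59. The 96 genes that rose had a median of 1.11, and over all genes tested the median was -0.005. In leaf samples of this kind, fewer cells of a type and less RNA per cell cannot be told apart.

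Without WW ZT13 replicate 2, 208 genes fell and 14 rose, all of them among the 838. Without WW ZT7 replicate 3, 446 fell and 47 rose, and 485 of these 493 were among the 838. Without both, 155 fell and 15 rose. All 742 and all 96 genes kept their direction without both libraries, with medians of -1.95 and 1.02, and 155 and 14 of them were still called. Without replicate 1 of every group 1 level gene was called, without replicate 2 there were 6 and without replicate 3 there were 3412, and limma with voom quality weights called 89. The count of level genes was also 4132 without WW ZT13 replicate 3, 326 without WW ZT19 replicate 3, 383 without WL ZT7 replicate 3, 441 without WW ZT1 replicate 2, 460 without WL ZT19 replicate 3, 463 without WL ZT1 replicate 1, 488 without WL ZT7 replicate 1 or WL ZT13 replicate 2, 508 without WW ZT19 replicate 1, 534 without WW ZT7 replicate 1 and 541 without WL ZT19 replicate 2.

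**Figure D1:**
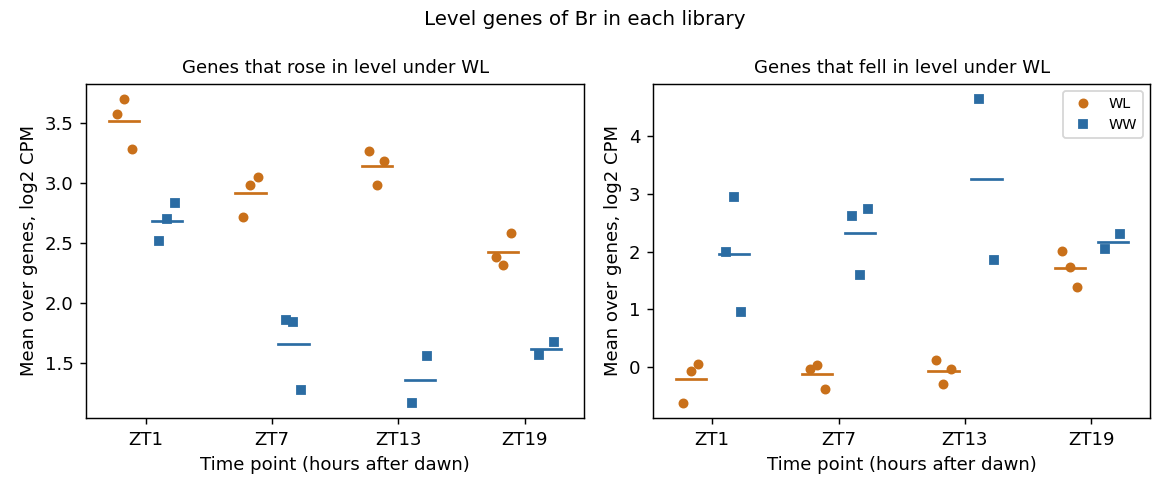
Mean log2 CPM over the 96 genes that rose (left) and the 742 genes that fell (right) in each Br library, by time point in hours after dawn; circles are WL plants, squares WW plants, and lines group means. Over the genes that fell, the WL libraries of ZT1, ZT7 and ZT13 lie between -0.63 and 0.11 and those of ZT19 between 1.38 and 2.01, against 0.96 to 4.65 in WW libraries.

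By value the falls were larger at ZT1, ZT7 and ZT13 than at ZT19, though the test of a change with time of day, given further on, called no gene. Averaged over the 742 genes, the log2 CPM of the 9 WL libraries of ZT1, ZT7 and ZT13 lay between -0.63 and 0.11, below all 10 WW libraries (0.96 to 4.65). The 3 WL libraries of ZT19 lay at 2.01, 1.73 and 1.38, within the range of the WW libraries and next to the WW libraries of ZT19 at 2.04 and 2.30. The highest WW value, 4.65, came from ZT13 replicate 2 and the next, 2.94, from ZT1 replicate 2. The 742 genes were chosen on these same libraries, so lower values under WL follow in part from the choice. WL ZT19 and WW ZT19 libraries correlated at 0.925 to 0.977 over all genes, much as the WL ZT19 libraries did among themselves (0.943 to 0.966). The median correlation of a ZT19 library with all other Br libraries was 0.912 to 0.922. The range between WL and WW was not worked out for the other time points, so it does not set ZT19 apart.

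Taken by time point, the 742 genes had median log2 fold changes of -2.45 at ZT1, -2.77 at ZT7, -4.29 at ZT13 and -0.48 at ZT19. With groups without a count set at 3 counts per library these were -2.30, -2.53, -4.24 and -0.48. At ZT13, 729 of the 742 (98.2%) had an unadjusted edgeR p of 0.05 or less, against 19.7% of all genes tested. At ZT19 67 of them (9.03%) did, against 4.07% of all genes. Of the 742, 165 were above 0 at ZT19, against 27112 of all 53655 genes. These values describe the genes that the average chose, so they carry no test of their own. For 156 of the 742 genes all 9 WL libraries of ZT1, ZT7 and ZT13 lay below all 10 WW libraries, as they did for 175 (0.326%) of the genes tested. In 80 of the 156, all 3 WL libraries of ZT19 were at or above the lowest WW library. Averaged over ZT1, ZT7 and ZT13 alone, an alternative chosen after the results were seen, 1347 genes fell and 206 rose, including 716 of the 742 and 79 of the 96. Without the 2 libraries that stand apart these counts were 202 and 9.

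The 96 genes that rose did so more evenly over the day. Their medians were 0.74 at ZT1, 1.19 at ZT7, 1.62 at ZT13 and 0.67 at ZT19, and 92, 95, 96 and 94 of them were above 0. Averaged over these genes, the log2 CPM was 3.28 to 3.70 in WL libraries and 2.52 to 2.83 in WW libraries at ZT1, 2.72 to 3.05 against 1.28 to 1.86 at ZT7, 2.98 to 3.26 against 1.17 and 1.56 at ZT13, and 2.32 to 2.58 against 1.57 and 1.67 at ZT19. The WL libraries thus lay above the WW libraries at each time point, and in both treatments the genes were highest at ZT1. These libraries also chose the genes, so the order of the treatments is a description.

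**Figure D2:**
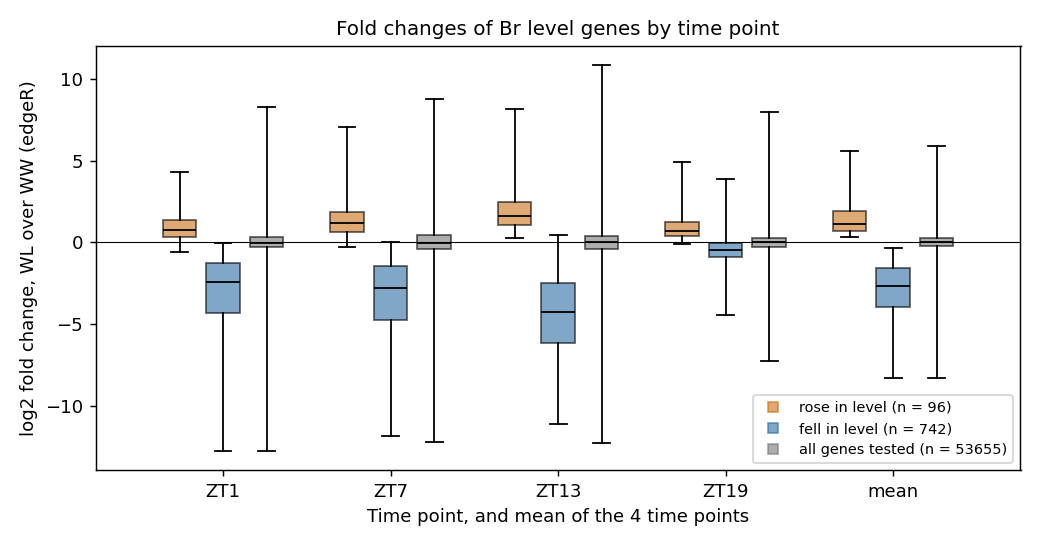
Log2 fold changes of WL over WW by time point and for the mean of the 4 time points (edgeR); boxes span the quartiles with a line at the median, and whiskers reach the lowest and highest gene. The 742 genes that fell have medians of -2.45, -2.77, -4.29 and -0.48 from ZT1 to ZT19, the 96 that rose 0.74, 1.19, 1.62 and 0.67, and all 53655 genes lie around 0.

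The second comparison asked which genes differed at single times of day. At ZT13, 199 genes (0.371%) fell and 26 (0.0485%) rose at an adjusted p of 0.01 or less. No gene was called by edgeR at ZT1 (0% of genes), at ZT7 (0%) or at ZT19 (0%), where the smallest adjusted p was 0.0825, 0.0776 and 1. At an unadjusted p of 0.05 or less there were 5491 genes at ZT1, 10164 at ZT7, 10551 at ZT13 and 2186 (4.07%) at ZT19. DESeq2 called 171 genes at ZT1, 376 at ZT7, 2053 at ZT13 and 0 at ZT19, and limma with voom quality weights called 0, 2, 0 and 0. ZT19 had the fewest genes under each of these counts or shared the lowest one.

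The calls at ZT13 depended on single libraries, among them WW ZT13 replicate 2. Without it 4 genes were called, of which 3 were among the 225, and WW ZT13 then held 1 library, whose spread was taken from the other groups. Without its partner, WW ZT13 replicate 3, 2686 genes were called. Without WW ZT1 replicate 3 there were 347 calls, without any 1 of the 3 WL libraries of ZT13 there were 0, without WW ZT1 replicate 2 or WW ZT7 replicate 3 the count stayed within 1.5 times of 225, and without each of the other 14 libraries it lay between 1 and 76. With the replicate number as a block 1 gene was called.

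The third comparison asked whether the response itself changed with time of day (pattern, the treatment by time point interaction with 3 degrees of freedom). No gene was called by edgeR (0%; smallest adjusted p 0.412), with 5118 genes (9.54%) at or under an unadjusted p of 0.05, 58 genes called by DESeq2 and 0 by voom. Among the 742 genes that fell in level, 455 (61.3%) had an unadjusted p of 0.05 or less in this test. Since the same libraries chose these genes, the share is a description. The 3 genes of smallest p are given as values only. BraA03g31500R had 7.62, 7.20 and 6.19 CPM in WL plants against 14.8, 17.4 and 13.1 CPM in WW plants at ZT1, and 21.9, 24.4 and 32.6 CPM against 7.45 and 14.0 CPM at ZT13, so its order reversed between morning and evening. BraA05g26050R was above WW at ZT1 in WL plants, with 16.9, 20.0 and 17.3 CPM against 11.7, 13.6 and 12.8 CPM, and below it at ZT7, with 12.7, 9.70 and 12.5 CPM against 16.8, 17.2 and 18.8 CPM. BraA04g18420R had 11.04, 12.9 and 11.4 CPM in WL plants against 27.1 and 20.7 CPM in WW plants at ZT13, and 22.2, 32.8 and 30.6 CPM against 20.7 and 21.4 CPM at ZT19.

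Of the level genes, 424 had a mean of at least 1 CPM, deposited log2 FPKM values and a WL minus WW difference in mean log2 FPKM of 1 sign at all 4 time points, 353 that fell and 71 that rose. In the 8 largest falls among them the transcript stood at 1.17 CPM or less in the WL plants of ZT1, ZT7 and ZT13 and was higher on average in those of ZT19. BraA08g02210R, on chromosome A08, had the smallest p of all genes in the level test. Its CPM in WL plants was 0, 0.156 and 0 at ZT1, 0.171, 0 and 0 at ZT7, 0.887, 0 and 0.692 at ZT13, and 31.9, 29.6 and 11.7 at ZT19. In WW plants it was 42.5, 112 and 4.71 at ZT1, 41.6, 10.8 and 25.4 at ZT7, 368 and 14.9 at ZT13, and 31.7 and 17.5 at ZT19. WL and WW libraries did not overlap at ZT1, ZT7 or ZT13 and overlapped at ZT19. The log2 fold change averaged over the day was -6.89 ± 0.70 (SE; edgeR adjusted p 1.77e-05), and -5.95 ± 0.61 (adjusted p 5.02e-05) without the 2 libraries that stand apart.

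Bo1g051830, on C1, was at 0 CPM in all 6 WL libraries of ZT1 and ZT7 and at 0.111, 0.125 and 0.106 CPM in those of ZT13. It stood at 9.75, 2.39 and 2.86 CPM in the WL libraries of ZT19, against 5.18 and 4.17 CPM in WW plants at ZT19. The WW libraries of the other times held 13.2, 27.2 and 1.26 CPM at ZT1, 16.1, 9.94 and 5.98 CPM at ZT7, and 56.8 and 7.97 CPM at ZT13. Its fitted log2 fold change was -7.36 (edgeR adjusted p 0.000184), and -4.98 with the 2 groups without a count set at 3 counts per library. BraA03g22110R, on A03, ran from 0 to 0.111 CPM in the 9 WL libraries until ZT13 and from 1.36 to 2.52 CPM in those of ZT19, against 1.15 to 43.7 CPM in the WW libraries. Its fold change was -6.48 as fitted and -5.27 at that floor (adjusted p 5.02e-05).

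The other genes of this group were near 0 in the WL plants of ZT1, ZT7 and ZT13. In the 9 WL libraries until ZT13, Bo3g184370 reached 0.0555 CPM at most, Bo4g127140 0.391, BraA05g03320R 0.511, Bo3g036290 0.721 and Bo7g108080 1.17. In the WW libraries their medians were 3.09 CPM for Bo3g184370, 5.31 for Bo4g127140, 1.41 for BraA05g03320R, 8.94 for Bo3g036290 and 7.75 for Bo7g108080. The level fold changes of these 5 were -6.65, -5.87, -5.48, -6.12 and -5.58 as fitted and -5.44, -4.66, -3.12, -4.90 and -5.58 with empty groups at the floor. Bo7g108080 rested in part on 1 library, WW ZT13 replicate 2, with 483 CPM against 35.0 CPM or less in every other library, and without the 2 libraries that stand apart its fold change was -3.42 with an adjusted p of 0.0179. BraA05g03320R also missed the threshold then, with an adjusted p of 0.0226, and the other 6 of these falls did not.

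Bo7g030980, on C7, a gene known from earlier results of this series to change in most accessions, fell in level in Br. Its CPM in WL plants was 0.212, 0 and 0.358 at ZT1, 0.769, 1.04 and 0.113 at ZT7, 0.111, 0.0624 and 0.0532 at ZT13, and 4.54, 3.34 and 1.69 at ZT19. In WW plants it was 0.841, 8.97 and 3.16 at ZT1, 23.4, 6.04 and 4.42 at ZT7, 7.12 and 12 at ZT13, and 11.9 and 14.4 at ZT19. At each time point, ZT19 included, the WL plants were below the WW plants. The level fold change was -4.35 ± 0.45 (edgeR adjusted p 5.02e-05), and -4.50 without the 2 libraries that stand apart. BraA07g23820R, on A07, also from that group, fell with a level fold change of -2.09 ± 0.35 (adjusted p 0.00322). Its WL values of 2.33, 0.782 and 0.460 CPM overlapped the WW values of 0.420, 2.27 and 1.21 CPM at ZT1, while at ZT19 it stood at 0.841, 1.40 and 0.389 CPM in WL plants against 7.01 and 4.96 CPM in WW plants.

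At ZT13 the 2 largest falls among the genes called there with a mean of at least 1 CPM and log2 FPKM values, Bo4g021480 and BraA07g38160R, held 3 and 4 counts over the 3 WL libraries. Bo4g021480 had 0.111, 0 and 0.0532 CPM in WL plants, against 212 CPM in WW replicate 2 and 0.965 CPM in WW replicate 3. BraA07g38160R had 0.166, 0 and 0.0532 CPM in WL plants, against 158 and 3.69 CPM in WW replicates 2 and 3. Both genes were lower in all 3 WL plants than in either WW plant, but in CPM the 2 WW plants lay further from each other than WL plants did from WW replicate 3. Neither was called at ZT13 without WW ZT13 replicate 2 and WW ZT7 replicate 3, with adjusted p of 0.432 and 0.332.

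Among the 8 largest rises that met the rule for naming, BraA02g38550R, on A02, had the smallest p. In WL plants it had 11.9, 17.4 and 6.44 CPM at ZT1, 3.08, 7.55 and 7.54 CPM at ZT7, 7.54, 7.62 and 10.6 CPM at ZT13, and 2.19, 3.88 and 2.92 CPM at ZT19. In WW plants it had 1.68, 4.13 and 2.93 CPM at ZT1, 0.829, 0.497 and 0.130 CPM at ZT7, 0.328 and 0.420 CPM at ZT13, and 1.88 and 0.719 CPM at ZT19. WL plants were above WW plants at each of the 4 time points. The level fold change was 2.85 ± 0.29 (edgeR adjusted p 0.0001), with 2.03 at ZT1, 3.65 at ZT7, 4.48 at ZT13 and 1.23 at ZT19, and it was 2.72 (adjusted p 0.0012) without the 2 libraries that stand apart. By the same rule this gene was also the largest rise called at ZT13 (adjusted p 0.00764), a call that was lost without those libraries (adjusted p 0.168).

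Bo2g140520, on C2, had a like course at lower values. It had 5.61, 5.79 and 3.58 CPM in WL plants against 1.37, 1.75 and 1.44 CPM in WW plants at ZT1, 1.28, 2.47 and 3.49 CPM against 0.603, 0.213 and 0 CPM at ZT7, 3.22, 3.87 and 2.82 CPM against 0.493 and 0.294 CPM at ZT13, and 1.01, 1.53 and 1.04 CPM against 0.610 and 0.144 CPM at ZT19. The groups were apart at each time point, and the level fold change was 2.42 ± 0.32 (edgeR adjusted p 0.000577; 2.40 with an adjusted p of 0.00128 without the 2 libraries). BraA02g38550R and Bo2g140520 were the 2 of these 8 rises that stayed at or under 0.01 without those libraries.

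The remaining 6 of these rises were Bo7g116020 (level fold change 3.30), Bo8g091100 (2.59), BraA09g38390R (2.39), BraA05g17510R (2.23), Bo8g106930 (2.14) and Bo00722s080 (2.09), with edgeR adjusted p from 0.00295 to 0.00998. Without the 2 libraries they had fold changes of 2.93, 2.36, 2.27, 2.09, 1.86 and 2.14 with adjusted p from 0.0244 to 0.0679. BraA09g38390R differed most by value at ZT13, with 17.1, 26.9 and 21.2 CPM in WL plants against 0.328 and 0.629 CPM in WW plants. At ZT7 it had 0.684, 1.95 and 1.74 CPM against 0.603, 0.923 and 0.455 CPM, and the groups overlapped. They also overlapped at ZT1 (2.275, 16.5 and 2.05 CPM against 1.73, 2.79 and 2.35 CPM) and at ZT19 (0.841, 2.30 and 9.73 CPM against 2.03 and 1.29 CPM). This gene was not called at ZT13 (edgeR adjusted p 0.0128) or for pattern (edgeR adjusted p 0.466). Bo7g116020 varied widely among WL plants, from 1.82 to 20.0 CPM at ZT19. Bo00722s080, on no assigned chromosome, was highest at ZT1 in both treatments, with medians of 90.3 CPM in WL plants and 39.5 CPM in WW plants.

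**Figure D3:**
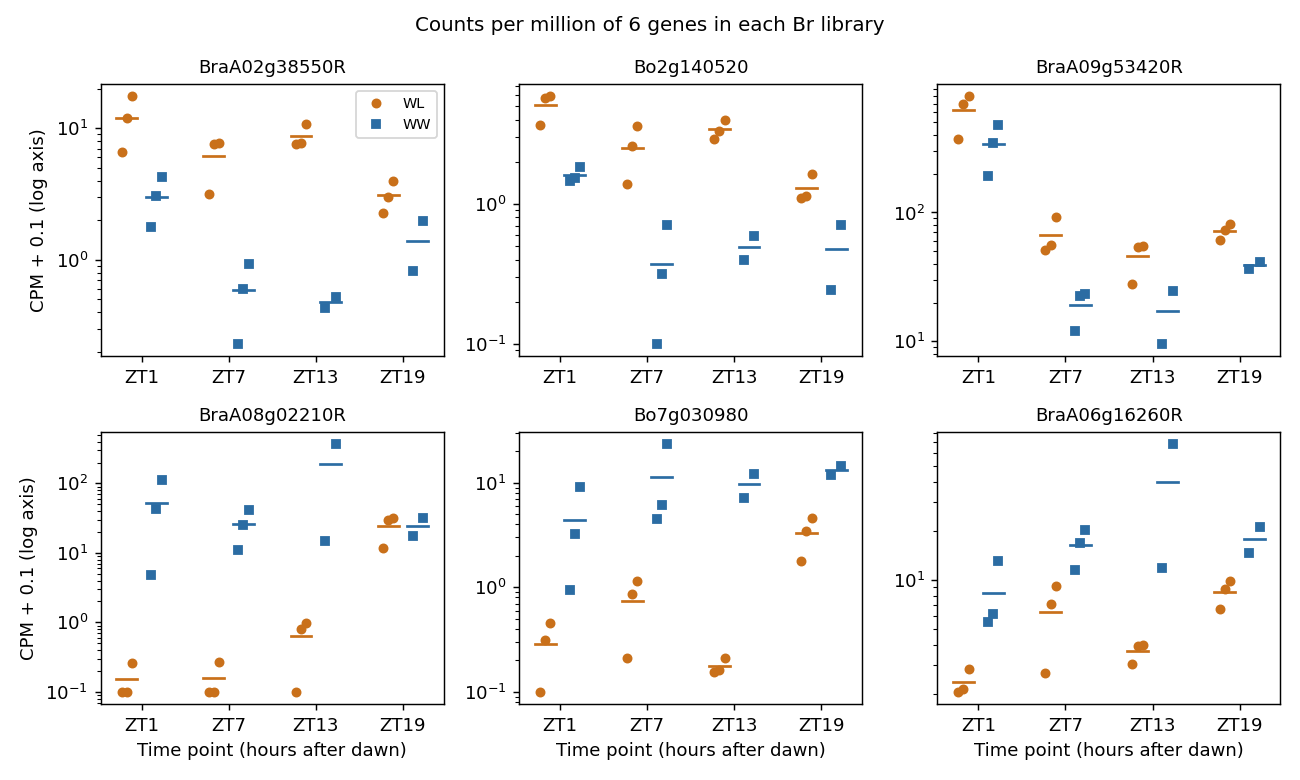
CPM (log axis, 0.1 added) of 6 genes in each Br library by time point; circles are WL plants, squares WW plants, lines group means. The upper row shows BraA02g38550R, Bo2g140520 and BraA09g53420R, which rose, and the lower row BraA08g02210R, Bo7g030980 and BraA06g16260R, which fell; BraA08g02210R reaches 11.7 to 31.9 CPM in WL plants at ZT19, against 31.7 and 17.5 CPM in WW plants.

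A further 6 called genes were named for their abundance and not for the size of their change. Smaller changes than in the genes above therefore follow from the choice. BraA02g27160R, the rise with the highest mean log2 FPKM, had 536, 653 and 581 CPM in WL plants against 137 and 86.0 CPM in WW plants at ZT13, but 230, 390 and 242 CPM against 428, 578 and 297 CPM at ZT1, where WL plants were the lower on average. Its level fold change was 0.90 ± 0.17 (edgeR adjusted p 0.00706) and its ZT13 fold change 2.40 (adjusted p 0.00814). Bo9g078290 rose by 1.12 ± 0.21 (adjusted p 0.00625) and ran with the time of day, from 323 to 630 CPM in WL plants and 186 to 282 CPM in WW plants at ZT1 and from 21.6 to 33.3 CPM and 13.9 to 17.04 CPM at ZT19. Bo4g045430 rose by 0.47 ± 0.09 (adjusted p 0.0086), with 63.0 to 108 CPM in WL and 47.6 to 76.9 CPM in WW libraries. Bo5g038910 (-0.48 ± 0.10), Bo5g148380 (-0.80 ± 0.15) and Bo9g036810 (-1.10 ± 0.22) were the abundant falls, with adjusted p of 0.00993, 0.00573 and 0.00781. Bo9g036810 stood at 69.8, 67.1 and 54.9 CPM in WL plants at ZT19 against 65.9 and 66.2 CPM in WW plants, and at 21.7, 27.7 and 14.1 CPM against 110 and 52.8 CPM at ZT13. None of these 6 stayed at or under 0.01 without the 2 libraries that stand apart (adjusted p 0.0237 to 0.114).

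In 6 genes, named after their values were seen, all 12 WL libraries lay on one side of all 10 WW libraries. That held for 3 genes below (0.00559% of those tested) and 3 above (0.00559%). BraA04g27320R had 0.651 to 29.3 CPM in WL plants against 0 to 0.175 CPM in WW plants, with the largest fold change of the 96 rises (5.60 ± 0.66, edgeR adjusted p 0.000183). Bo9g015160 had 1.10 to 5.63 CPM against 0.195 to 1.09 CPM and Bo9g017730 6.01 to 16.1 CPM against 1.496 to 5.91 CPM. BraA04g08640R had 0 to 2.21 CPM in WL plants against 2.41 to 24.2 CPM in WW plants, Bo2g032550 0 to 0.519 CPM against 0.559 to 22.9 CPM, and Bo4g013460 0 to 0.0902 CPM against 0.115 to 4.60 CPM. The adjusted p without the 2 libraries that stand apart was 5.02e-05 to 0.00241 for these genes except Bo9g015160 (0.0139) and Bo9g017730 (0.0153).

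Both subgenomes carried the response in like shares. Of 24739 BnA genes tested, 348 (1.41%) fell and 40 (0.162%) rose, and of 28855 BnC genes 394 (1.37%) fell and 56 (0.194%) rose. The median fold changes were -2.66 and 1.12 for BnA and -2.72 and 1.11 for BnC. By chromosome the share that fell ran from 0.858% on A10 to 1.92% on A03. The share that rose ran from 0% on A01 (0 of 1943 genes) to 0.406% on A09 (15 of 3698), against 0.179% of all genes. No difference between chromosomes was tested. Of the 742 genes, 105 lay in 51 runs of neighbours among the tested genes, with at most 3 genes in a run. The number for as many genes placed at random was not worked out, so local clustering was not tested. Reads that fit both copies of a gene were split between them by the counting, so values of near-identical copies are uncertain.

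The functional lists put these changes beside known processes. They were drawn up by the study from samples of this series, so their directions are not independent evidence, and they overlap. Genes of defense against other organisms, which plants switch on when they sense pathogens, were the largest list. Of 80 tested, 7 (8.75%) fell and 0 rose, against 1.38% and 0.179% of all genes. In 76 (95%) the fold change was below 0, against 50.7% of all genes, and 49 (61.2%) were lower at an unadjusted p of 0.05 or less, against 8028 (15%) of all genes. The median was -0.92 over the day and -0.52, -0.78, -1.64 and -0.50 from ZT1 to ZT19. Averaged over the list, log2 CPM was 1.99 to 4.60 with a median of 3.62 in WL libraries and 3.18 to 5.93 with a median of 4.12 in WW libraries, so the treatments overlapped. The highest value, 5.93, was WW ZT13 replicate 2, and without the 2 libraries that stand apart the median was -0.35 and 2 genes fell.

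BraA06g16260R, on A06, was the defense gene of smallest p. It had 1.96, 2.03 and 2.76 CPM in WL plants against 6.09, 13.0 and 5.45 CPM in WW plants at ZT1, 7.01, 9.12 and 2.59 CPM against 16.9, 11.4 and 20.3 CPM at ZT7, 2.94, 3.87 and 3.83 CPM against 68.2 and 11.7 CPM at ZT13, and 9.75, 8.75 and 6.49 CPM against 14.5 and 20.9 CPM at ZT19. The WL plants were below the WW plants at all 4 times, with a level fold change of -1.95 ± 0.27 (edgeR adjusted p 0.000839) and of -1.44 (adjusted p 0.00512) without the 2 libraries. Bo1g017420, on C1, is in the defense list and also in that of pectin metabolism, the remodelling of a cell wall polysaccharide, and fell by 1.48 ± 0.22 on the log2 scale (adjusted p 0.00118). It had 5.55 to 12.7 CPM in WL plants against 14.2 to 29.6 CPM in WW plants at ZT1 and overlapped at ZT19, with 47.5 to 92.1 CPM against 67.3 and 95.7 CPM. The other defense genes that fell with all libraries were BraA05g04610R (-3.07), BraA03g49990R (-2.65), BraA01g01720R (-1.96), BraA03g47350R (-1.53) and Bo7g070020 (-1.32). Without the 2 libraries that stand apart, only BraA06g16260R and Bo1g017420 (edgeR adjusted p 0.00891) of the defense list were called.

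Cell death and innate immunity, lists near defense, held 1 call each. Of 38 cell death genes 1 (2.63%) fell, 35 (92.1%) were below 0 and the median was -0.67, and of 41 innate immunity genes 1 (2.44%) fell, 35 (85.4%) were below 0 and the median was also -0.67. Over all genes 1.38% fell and 50.7% were below 0. Without the 2 libraries that stand apart neither list held a call, and the medians were -0.29 and -0.31. The gene called in both was BraA08g20050R, with 9.62 to 17.6 CPM in WL plants against 11.6 to 24.8 CPM in WW plants and a fold change of -0.41 ± 0.08 (edgeR adjusted p 0.00934). Without the 2 libraries its adjusted p was 0.0749, and the call was lost in 29 of 35 alternatives. Its counts were fractional in 100% of the libraries, so it shares reads with another locus. Of 18 pectin genes 3 fell, Bo1g017420, BraA01g01720R and BraA04g03200R (-1.91), with a median of -0.34, and without the 2 libraries 1 fell and the median was -0.17. None of 6 leaf senescence genes was called, all 6 were below 0 with a median of -0.56 (-0.29 without the 2 libraries), and BraA09g48620R of that list had -0.38 (adjusted p 0.0772).

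Regulators of the response to water deprivation, with 9 genes, were the list nearest to the treatment. All 9 were below 0, against 50.7% of all genes, from -1.47 to -0.03 with a median of -0.72. Without the 2 libraries that stand apart 0 were called. With all libraries 1 (11.1%) fell and 0 rose, against 1.38% and 0.179% of all genes. That gene, Bo3g068870 on C3, had 5.55, 9.39 and 8.90 CPM in WL plants against 15.5, 26.02 and 9.41 CPM in WW plants at ZT1, 15.7, 25.4 and 8.78 CPM against 29.8, 24.1 and 44.3 CPM at ZT7, 22.5, 13.2 and 10.2 CPM against 129 and 33.2 CPM at ZT13, and 42.5, 45.1 and 31.1 CPM against 40.6 and 72.6 CPM at ZT19. The groups overlapped at ZT7 and ZT19. The fold change was -1.25 ± 0.26 (edgeR adjusted p 0.00999), and -0.84 with an adjusted p of 0.106 without the 2 libraries that stand apart. By time point the list's median was -0.25, -0.98, -0.86 and -0.03, and it was -0.43 without those libraries.

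**Figure D4:**
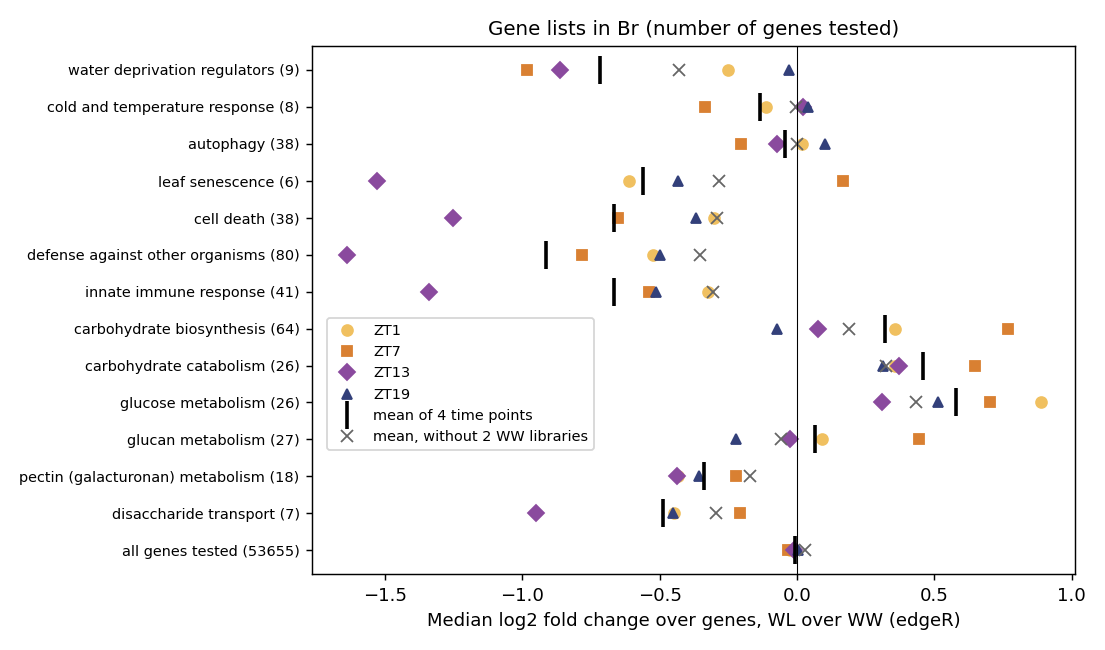
Median log2 fold change of WL over WW (edgeR) of each functional list in Br, with the number of genes tested; symbols are the 4 time points, the bar the mean over the day and the cross that mean without WW ZT13 replicate 2 and WW ZT7 replicate 3. Defense genes lie at -0.92 over the day and glucose metabolism genes at 0.58, against -0.005 for all genes tested.

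The carbohydrate lists held few calls, and none without the 2 libraries that stand apart. Of 26 genes of glucose metabolism, which covers the use and making of hexose sugars, 23 (88.5%) were above 0, against 49.3% of all genes. The median was 0.58, and 18 (69.2%) were higher at an unadjusted p (edgeR) of 0.05 or less, against 6438 (12%) of all genes. In the level test 1 (3.85%) rose and 1 (3.85%) fell, against 0.179% and 1.38% of all genes. The list's medians were 0.89 at ZT1, 0.70 at ZT7, 0.31 at ZT13 and 0.51 at ZT19, and 0.43 over the day without the 2 libraries that stand apart. Averaged over the list, log2 CPM was 5.73 to 7.35 with a median of 6.87 in WL libraries and 5.31 to 7.09 with a median of 6.38 in WW libraries, and the groups overlapped. Of 64 carbohydrate biosynthesis genes 51 (79.7%) were above 0 (median 0.32, and 0.77 at ZT7). Of 26 carbohydrate catabolism genes 20 (76.9%) were above 0 (median 0.46). Without the 2 libraries these medians were 0.19 and 0.33.

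The gene called in all 3 lists was BraA09g53420R, on A09. It had 700, 801 and 372 CPM in WL plants against 191, 343 and 480 CPM in WW plants at ZT1, 56.0, 50.8 and 92.2 CPM against 23.2, 22.3 and 11.97 CPM at ZT7, 54.1, 54.7 and 27.8 CPM against 9.47 and 24.6 CPM at ZT13, and 81.6, 61.0 and 72.5 CPM against 36.6 and 41.5 CPM at ZT19. It was higher on average in WL plants at every time point, with overlap at ZT1 alone, and peaked at ZT1 in both treatments. The fold change was 1.24 ± 0.23 (edgeR adjusted p 0.00498), and 1.07 with an adjusted p of 0.0301 without the 2 libraries. The glucose list also held the abundant fall Bo5g148380. No glucan gene was called among 27 (median 0.07, and -0.06 without the 2 libraries). BraA05g21890R of that list, with 117 to 1183 CPM in WL plants against 80.0 to 892 CPM in WW plants, had 0.77 ± 0.19 (adjusted p 0.0205).

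The lists of autophagy, cold and temperature response and disaccharide transport had no calls. In this order 71.1%, 62.5% and 100% of their genes were below 0, against 50.7% of all genes tested. Of 38 autophagy genes 27 were below 0, with a median of -0.04 (0.00085 without the 2 libraries) and a range of -0.26 to 0.31, and BraA05g29960R of that list had 0.31 (edgeR adjusted p 0.141). Of 8 cold and temperature genes 5 were below 0 (median -0.13, and -0.002 without the 2 libraries), and BraA05g15390R had -0.84 (adjusted p 0.0119). All 7 disaccharide transport genes were below 0 (median -0.49, and -0.29 without the 2 libraries), and BraA01g25740R had -1.04 (adjusted p 0.0692).

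The deposited log2 FPKM gave the time of the highest mean of each gene in each treatment. Of the 446 genes that fell and have such values, 390 peaked at ZT19 in WL plants, and in WW plants 311 peaked at ZT13 and 68 at ZT19. The WL and WW peaks differed for 79.8% of them, and for 49.6% without the 2 libraries that stand apart, where 198 peaked at ZT19 and 68 at ZT13 in WW plants. The ZT13 peak of WW plants thus rested on WW ZT13 replicate 2. Of the 79 genes that rose, 41 peaked at ZT1 and 26 at ZT13 in WL plants, against 61 at ZT1 and 3 at ZT13 in WW plants, and without the 2 libraries 58 and 8 in WW plants.

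The genes called in Br were then followed in the other 15 accessions, whose 332 libraries had no part in choosing them. Here the differences are of log2 CPM, from a limma fit of all accessions. The median over the 742 falls was -2.01 in Br and between -2.45 in Ca and -0.39 in Yu in the others, below 0 in all 15. The median over the 96 rises was 1.11 in Br and between 0.34 in Al and 1.07 in Ca in the others. Of the 742 falls 413 (55.7%) were below 0 in all 15 accessions, against 3.09% of all 67997 genes, and of the 96 rises 50 (52.1%) were above 0 in all 15, against 2.99%. In Ca and in Mu (-2.19) the median fall was the larger one.

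**Figure D5:**
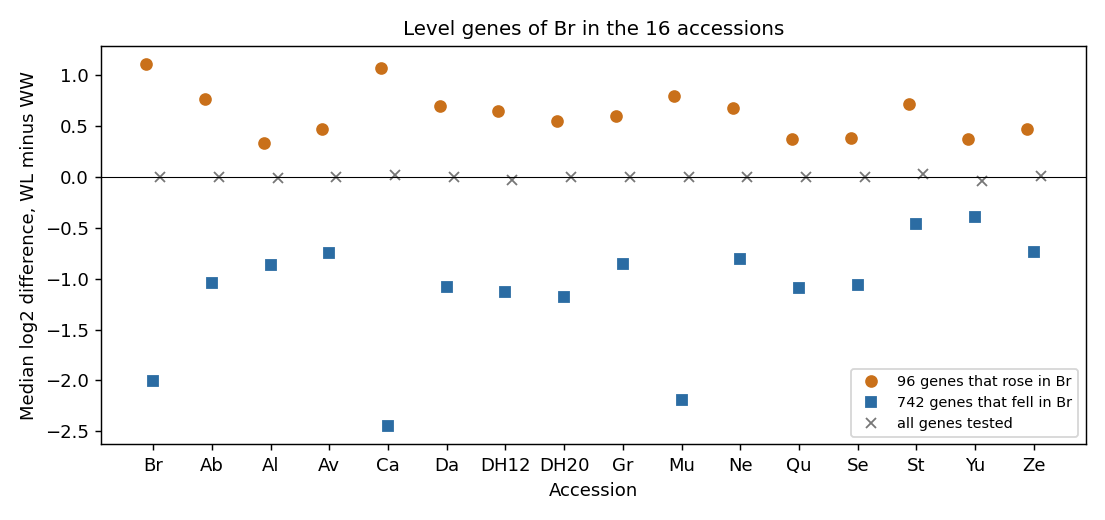
Median difference of log2 CPM, WL minus WW, averaged over the time points, in each of the 16 accessions for the 742 genes that fell and the 96 that rose in Br and for all genes tested (limma). The falls have a median of -2.01 in Br and of -2.45 to -0.39 in the others, and the rises of 1.11 in Br and of 0.34 to 1.07 in the others.

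The same genes were also read by time of day. The median of the 742 genes in Br was -1.95 at ZT1, -2.17 at ZT7, -3.18 at ZT13 and -0.51 at ZT19. The middle of the 15 other accessions was -0.96, -0.77, -1.20 and -1.03, with 14, 14, 13 and 14 of them below 0. Since the genes were chosen on the Br libraries, larger falls in Br follow from the choice. At ZT19, 4 of the 15 had a median above that of Br, namely St (0.05), DH20 (-0.29), Av (-0.34) and Ze (-0.35), and no difference between Br and the others by time of day was tested.

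A test of Br against the mean of the other 15 accessions called few genes. Of 67997 genes tested with limma, the WL minus WW difference was higher in Br for 29 (0.0426%) and lower for 24 (0.0353%) at an adjusted p of 0.01 or less. Of these 53, 35 had passed the filter on low counts in Br, 5 were level genes and 31 had a mean under 0.1 CPM in the other accessions and were thus barely counted outside Br. The 1 level gene among them that met the rule for naming was Bo8g106930, on C8. It had 1.64, 0.704 and 2.05 CPM in WL plants against 0.525, 0.233 and 1.15 CPM in WW plants at ZT1, 1.62, 1.56 and 1.74 CPM against 0.301, 0.781 and 0.130 CPM at ZT7, 3.05, 1.06 and 1.12 CPM against 0 and 0.0839 CPM at ZT13, and 0.925, 0.857 and 0.973 CPM against 0.813 and 0.683 CPM at ZT19. It was higher in WL plants at ZT7, ZT13 and ZT19 in every pair, at values near 1 CPM. The difference was 1.74 in Br and -0.25 to 1.06 with a mean of 0.29 in the others, so that Br exceeded them by 1.45 ± 0.29 (limma adjusted p 0.00282), and without the 2 Br libraries that stand apart the adjusted p was 0.0749. For BraA02g38550R the difference was 2.73 in Br and 2.57 on average in the others, where all 15 were above 0, and the test gave 0.15 ± 0.48 (adjusted p 0.957).

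BraA05g09610R, on A05, another gene known from earlier results to change in most accessions, was not called in Br and falls outside the rule on levels. It had 0.741, 0.0782 and 0.102 CPM in WL plants at ZT1, 0, 0.0651 and 0.563 CPM at ZT7, 4.49, 0.687 and 0.0532 CPM at ZT13 and 0.168, 0.316 and 1.17 CPM at ZT19, against 0 to 0.0839 CPM in WW plants. The fitted level fold change was 4.19 ± 0.98 and 2.92 with the empty WW group of ZT7 at 3 counts per library (edgeR adjusted p 0.0165). Its WL values spanned 0 to 4.49 CPM and were set by few counts.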

How the data were processed

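RNA from leaf apices was sequenced from stranded mRNA libraries. The authors trimmed reads with Trimmomatic 0.33, mapped them with HISAT2 2.1.0 to the joined genomes of B. oleracea TO1000 and B. rapa R500, and deposited estimated counts from featureCounts, in which multiply mapped reads count as fractions (33.2 to 38.4% of Br values above 0 were not whole), and log2 FPKM from edgeR without invariant genes. Counts were rounded and fitted in edgeR 4.0.16 (R 4.3.3; TMM, filterByExpr, 8 group means, no block, Benjamini-Hochberg); level fold changes average 4 time points. Accessions were compared with limma 3.58.1 on log2 CPM (prior count 2) with 1 weight per accession. Alternatives included RLE factors, no filter, DESeq2 1.42.0, voom with quality weights, a replicate block and left-out libraries. Named genes (40) were, among genes with a mean of 1 CPM and log2 FPKM values in Br, the largest and most abundant called changes and the genes of smallest p in each list and for pattern, and, whatever their level, 4 genes known earlier; the members, lists and tests were chosen with earlier results of these data known. Same-numbered replicates did not pair. No replicate pair agreed within sampling noise. p-values measure the spread between plants.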

Additional observations from a re-analysis of the deposited data

Results flagged for a closer look

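Bo8g106930 was flagged because its response differed between Br and the other accessions by a test of the difference itself: WL minus WW (log2 CPM) in Br exceeded the mean of the other 15 accessions by 1.45 ± 0.29 (limma adjusted p 0.00282). The Br value was 1.74, against -0.25 to 1.06 in the others, of which 12 were above 0. Without replicate 1, 2 or 3 of every accession the difference was 1.13 to 1.66, with adjusted p of 0.88, 0.132 and 0.00153. The call was lost in 5 of 10 alternatives. Besides the refits without replicate 1 or 2, these were the fit with no weights per accession (adjusted p 0.0225), that without WW ZT7 replicate 3 (1.34, adjusted p 0.0114) and that without WW ZT13 replicate 2 and WW ZT7 replicate 3 (1.24, adjusted p 0.0749).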

How the results depend on the processing

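No named gene reversed its direction in the refits of the result it was named for. The 3 genes named for pattern, a test without direction, were not among these refits. The level fold change of 1 of them, BraA03g31500R, was 0.022 with all libraries and -0.024 without both libraries that stand apart. The 838 level genes became 4075 at an adjusted p of 0.05, 3053 with DESeq2, 89 with voom quality weights, 1553 without ZT19 in the average, 493 without WW ZT7 replicate 3, 170 without both libraries that stand apart, 1 to 3412 without replicate 1, 2 or 3, and 222 to 4132 with each library left out in turn. The count of 0 at ZT1 became 171 with DESeq2, 0 to 96 without a replicate number and 0 to 2 with each library left out; that at ZT7 became 2 with voom and 376 with DESeq2; the pattern count of 0 became 58 with DESeq2. The 225 genes at ZT13 became 2511 at 0.05, 2053 with DESeq2, 0 with voom, 0 with the older quasi-likelihood fit, 1 with the replicate block, 4 without both libraries, 0 to 4031 without a replicate number and 0 to 2686 with each library left out. The 53 genes called in Br against the mean of the other accessions became 111 at 0.05, 32 without weights and 186 without a low-count filter. They became 29 without both libraries and 18 to 247 without a replicate number. Fallen genes whose WL and WW peaks differ were 79.8%, and 49.6% without both libraries. Leaving out both libraries, the older fit and the average without ZT19 were chosen after seeing the data.

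The replicate block gave 639 level genes (59 rose, 580 fell); over 10 pairs of same-numbered groups the deviations correlated at -0.447 to 0.283, 2 of them above 0.1. RLE factors gave 793 level genes, no filter 764, unrounded counts 860 and the older fit 559. Over 1375 refits of named genes 909 kept their side of the threshold, 455 lost it, 11 gained it and 0 reversed. The medians of the lists moved less than their spread in 442 of 442, which is a wide margin. With each library left out in turn the defense median ran from -1.21 to -0.44 and the glucan median from -0.04 to 0.16. Without a replicate number the autophagy median ran from -0.10 to 0.02. The cause of these changes was not tested. Genes under 1 CPM rest on few counts, and WW ZT13 and WW ZT19 hold 2 libraries each, which limits what ZT13 and ZT19 can show.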
